A study of Homo sapiens with 6 samples.

Results

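Cyclin-dependent kinase (CDK) inhibitors are small proteins that bind cyclin-CDK complexes and hold cells back from DNA replication. CDKN1A (p21), CDKN1B (p27) and CDKN1C (p57) form the Cip/Kip family, which binds cyclin E-CDK2 and cyclin A-CDK2 complexes. CDKN2A gives 2 proteins from 2 starts: p16INK4a, which binds CDK4 and CDK6, and p14ARF, which binds the ubiquitin ligase MDM2. Pluripotent cells are known for a short G1 phase and for low levels of most of these inhibitors, which many cell types gain on differentiation. The members described here are all regions of the deposited table that carry the name CDKN1A, CDKN1B, CDKN1C or CDKN2A. These are 4 regions of 14686, 1 for each gene.

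The RNA source was H9, an established line of human embryonic stem cells (hESCs), at passage 51. The hESCs were kept undifferentiated on Matrigel in medium conditioned on mouse embryonic fibroblasts, and gave 1 library each from G1 (0 h), G1/S (2 h) and S (3 h). Endoderm was made from the same cells by 6 days with activin A (100 ng/ml), in RPMI medium with fetal bovine serum at 0%, then 0.2%, then 2.0%, and gave 1 library each from G1 (0 h), G1/S (3 h) and S (6 h). Serum and medium thus differ along with the cell type, and their effects cannot be told apart. How the phases were obtained, and from which event the hours count, was not stated in the labels. Each cell type has 3 libraries that differ in phase, and nothing in the labels says that any came from separate cultures, so the p-values measure only the spread among these 6 libraries.

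Depth ranged from 2502792 reads in the endoderm S library to 6203079 in the hESC S library. Values are called signal here: reads at the 3′ end of a transcript divided by the size factor of the library. The libraries differ in base composition, measured by the rank correlation across 8834 regions between GC content and deviation from the regional mean. It was positive only in the 2 G1/S libraries, at 0.42 in hESC and 0.24 in endoderm. In endoderm G1 it was -0.39, larger in size than in endoderm G1/S, and it was -0.16 to -0.00 in the rest. The calls on the inhibitors and the list counts in the comparison of the cell types are therefore also given without the 2 G1/S libraries. Dropping both cut the regions past the threshold from 2125 to 415, so most calls over all regions were lost too. All 8 measured markers of definitive endoderm rose in endoderm, among them SOX17 and FOXA2, and their summed signal was 442 to 533 in hESCs and 8279 to 17230 in endoderm. Of 8 measured pluripotency markers, 3 fell and none rose, though only 1 fell without both G1/S libraries or without hESC G1/S alone and 2 without endoderm G1/S alone. Their sum was 3059 to 4267 in hESCs and 1407 to 1739 in endoderm, so the endoderm libraries kept RNA of these genes, POU5F1 included. Both measured neuroectoderm genes (PAX6, OTX2) rose, with summed signal of 28.1 to 69.6 in hESCs and 452 to 742 in endoderm. Of 3 measured mesoderm genes (sums 74.4 to 89.5 and 117 to 293) TWIST1 rose (2.62), while TBX6 (-0.76) and KDR (-0.79) did not pass and had every endoderm value below every hESC value. Of 3 measured trophoblast genes GATA3 rose (2.62) and KRT7 (-2.42) and TFAP2C (-2.12) fell, with overlapping sums of 216 to 319 and 139 to 303. Both measured stromal genes (COL1A1, THY1) fell, with sums of 5052 to 9017 in hESCs and 1754 to 3300 in endoderm. Without both G1/S libraries, or without hESC G1/S alone, the endoderm, neuroectoderm and mesoderm counts were as large, and no trophoblast or stromal gene passed. Without endoderm G1/S alone, 1 trophoblast and 0 stromal genes fell and no trophoblast gene rose. The defining mesoderm gene T, the neural gene SOX1 and the trophoblast gene CGA had no region in the table. The part of these cells in the results below was not tested, and in bulk RNA fewer cells that express a gene and less RNA per cell cannot be told apart.

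Positions are in hg18, the build named in the submitters' processing notes. The CDKN1A region is chr6:36762732-36763092 (plus strand, 361 bases), that of CDKN1B is chr12:12766327-12766542 (plus strand, 216 bases), that of CDKN1C is chr11:2861430-2861736 (minus strand, 307 bases) and that of CDKN2A is chr9:21957853-21958262 (minus strand, 410 bases). The strand is read from the order in which the table writes the 2 positions, an order that matched RefSeq for 99.7% of 6973 regions with a gene of known strand. Exons and untranslated parts are not given, since annotation of that build was not used here.

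Read ends at the CDKN2A region do not tell its 2 products apart. In GENCODE release 29 on GRCh38, 4 coding transcripts begin near the ARF start and 3 near the p16INK4a start, 20467 bases further on, and all 7 end within 429 bases of each other. The RefSeq promoters (GRCh38.p14) below show how unlike the starts are that feed this 1 signal, beside those of CDKN1A and CDKN1B. Each is the 100 bases before the start, 5′ to 3′ on the strand of the gene, and capitals mark GC boxes (GGGCGG or its reverse CCGCCC, which the factor SP1 binds) and the CCAAT box (CCAAT or ATTGG). They lie at chr9:21995325-21995424 (minus), chr9:21974858-21974957 (minus), chr6:36678614-36678713 (plus) and chr12:12717268-12717367 (plus), in the order printed. CDKN1C was not used here.
CDKN2A, ARF start: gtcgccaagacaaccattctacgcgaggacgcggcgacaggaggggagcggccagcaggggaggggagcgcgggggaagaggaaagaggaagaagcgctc
CDKN2A, p16INK4a start: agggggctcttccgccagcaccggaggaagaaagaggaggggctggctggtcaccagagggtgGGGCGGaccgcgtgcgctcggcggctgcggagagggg
CDKN1A: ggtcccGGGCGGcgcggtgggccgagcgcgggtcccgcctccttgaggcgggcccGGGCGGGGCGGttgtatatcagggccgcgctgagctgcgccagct
CDKN1B: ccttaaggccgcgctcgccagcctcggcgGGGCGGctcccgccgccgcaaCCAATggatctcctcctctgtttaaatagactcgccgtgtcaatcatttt

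These letters hold 3 GC boxes in CDKN1A, 2 of which share a base, 1 in CDKN1B, 1 before the p16INK4a start and 0 before the ARF start. A GC box is present in 31.3% of all 35116 such windows and a CCAAT box in 18.1%. The windows are 79.0% G or C in CDKN1A, 73.0% and 67.0% before the p16INK4a and ARF starts, and 61.0% in CDKN1B. The motif TATAAA (either strand), found in 4.99% of windows, is in none of these 4. A match here is a description of letters, not of a bound site.

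Setting endoderm against hESCs at matched phases asks which inhibitors go with the differentiated state. CDKN2A and CDKN1C rose in endoderm and CDKN1A fell, while CDKN1B stood higher in endoderm in each phase without passing the test. Ratios of mean signal, endoderm to hESC, were 5.91 for CDKN2A, 4.34 for CDKN1C, 2.62 for CDKN1B and 0.345 for CDKN1A. Of the 4 inhibitors 2 rose and 1 fell, against 6.90% of all 14657 regions tested that rose and 7.60% that fell. For 3 of the 4 (CDKN1B, CDKN1C and CDKN2A) every endoderm value lay above every hESC value, as it did for 14.7% of all regions. The plot of signal by phase shows each library.

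**Figure D1:**
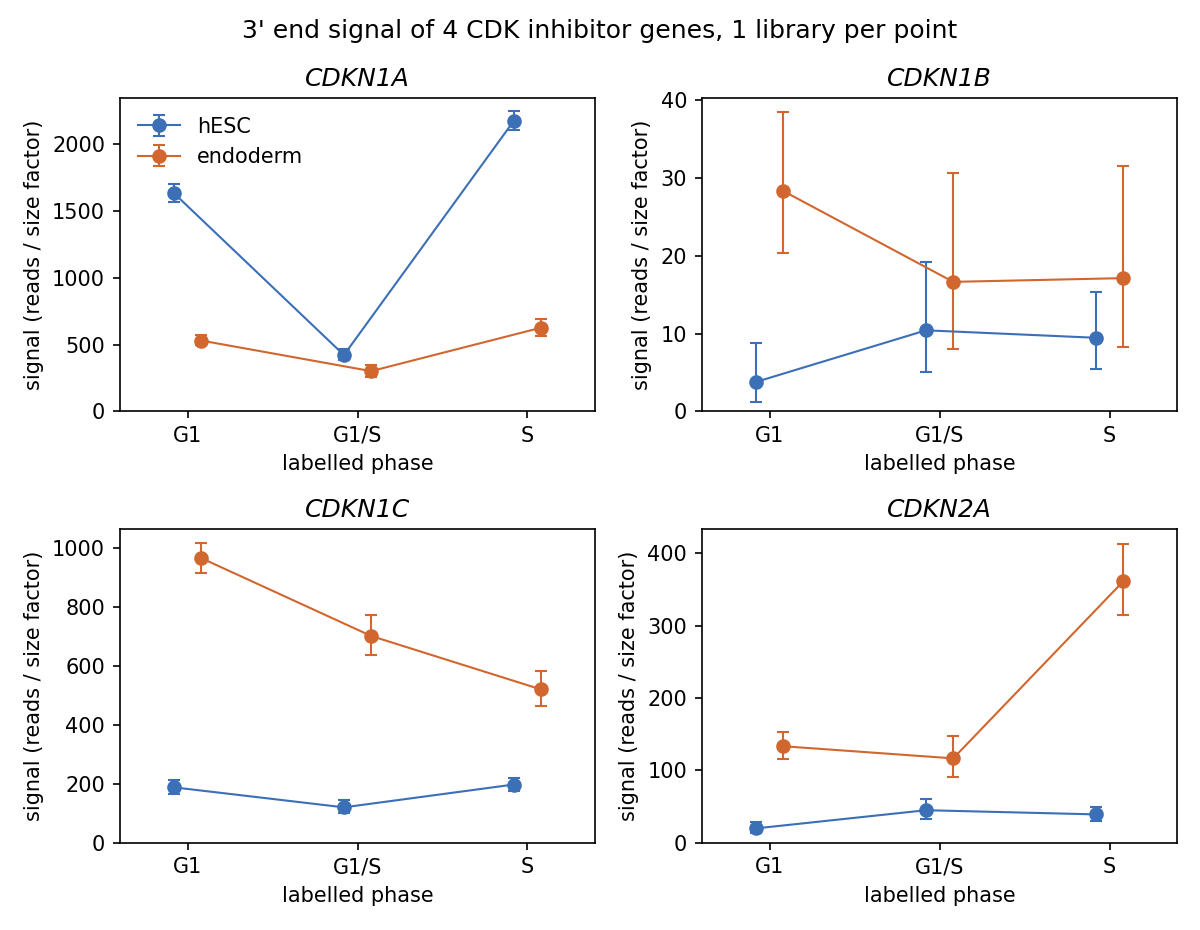
Signal (reads divided by the size factor of the library) of the 4 inhibitor genes against labelled phase, hESC in blue and endoderm in orange. Each point is 1 library and each bar its exact 95% Poisson interval, and lines join libraries of 1 cell type; CDKN1A is high in hESC G1 and S only, CDKN1C and CDKN2A are high in endoderm.

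CDKN2A signal in hESCs was 19.7 in G1, 44.8 at G1/S and 39.0 in S phase. The endoderm values were 133 in G1, 116 at G1/S and 361 in S phase. The lowest endoderm value, in G1/S, was above the highest hESC value, also in G1/S, and the endoderm S library stood far above the other endoderm libraries. The means were 34.5 ± 13.1 in hESCs and 204 ± 137 in endoderm (SD, n = 3 phases). The log2 difference was 2.41 ± 0.42 (SE; limma adjusted p = 0.0139), exceeded upward by 3.30% of regions. Dropping any single library of the 6 kept the call, as did dropping both G1/S libraries, at 2.94 (adjusted p = 0.0445). Dropping either library of a phase gives the same difference, so these fits are not all separate checks. Within phases, the ratio of endoderm to hESC was 6.77 for G1 (95% counting interval 4.48 to 10.6), 2.60 for G1/S (1.75 to 3.90) and 9.26 for S phase (7.00 to 12.4). It was thus smallest at G1/S, where the hESC value was highest and the endoderm value lowest.

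CDKN1C, an imprinted gene expressed mainly from the maternal copy, had a G1 signal of 188 in hESCs, with 120 at G1/S and 197 in S phase. Endoderm began at 967 in G1, with 702 at G1/S and 520 in S phase. Every endoderm library was above every hESC library by a wide margin. The means were 168 ± 42.3 and 730 ± 224 (SD, n = 3 phases), and endoderm exceeded hESC by 2.10 ± 0.31 on the log2 scale (SE; limma adjusted p = 0.00805). Only 4.71% of regions had a larger difference upward. The ratio of endoderm to hESC was 5.15 for G1 (95% counting interval 4.50 to 5.92), 5.86 for G1/S (4.76 to 7.27) and 2.64 for S phase (2.25 to 3.09). Without both G1/S libraries the difference was 1.88 and missed the threshold (adjusted p = 0.0665). Dropping hESC G1/S alone or endoderm G1/S alone gave the same difference (adjusted p = 0.0668 and 0.0609) and is not a separate check. After correction for GC content, added after the data were seen, the call was kept at 1.97 (limma adjusted p = 0.00392). That fit tested only 8825 named regions, which without correction gave 2.10 (limma adjusted p = 0.00489).

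CDKN1A, which is induced after DNA damage and other stress, ran the other way. Its hESC signal was 1633 in G1, 422 at G1/S and 2176 in S phase, and its endoderm signal was 530 in G1, 301 at G1/S and 626 in S phase. The groups overlapped, because hESC G1/S lay below endoderm G1 and endoderm S. Within each phase endoderm was the lower type, as for 29.1% of all regions. hESC signal was 3.08 times endoderm signal in G1 (95% counting interval 2.84 to 3.35), 1.40 times at G1/S (1.17 to 1.68) and 3.47 times in S phase (3.12 to 3.88). The means were 1410 ± 898 and 486 ± 167 (SD, n = 3 phases), and the fitted change on the log2 scale was -1.30 ± 0.31 (SE; limma adjusted p = 0.0344). When single libraries were dropped this call was kept in 2 fits of 6, those without either G1 library, which share 1 difference (-1.14). Without hESC S alone or endoderm S alone the difference was smaller (-1.05) and missed the threshold (limma adjusted p = 0.121 and 0.101). Without both G1/S libraries the difference was larger (-1.71) but missed the threshold (adjusted p = 0.0581), in a fit in which 415 regions passed against 2125. The call was also lost without the phase term (adjusted p = 0.141) and without the intensity trend (adjusted p = 0.105). After correction for GC content, added after the data were seen, it was kept at -1.20 (limma adjusted p = 0.0261). That fit tested only 8825 named regions, which without correction gave -1.30 (limma adjusted p = 0.0263).

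CDKN1B, whose protein is controlled largely by its removal through SKP2, had the fewest reads of the 4. In phase order, 5, 10 and 16 reads in hESCs gave signals of 3.78, 10.4 and 9.45. For endoderm 41, 10 and 10 reads gave 28.3, 16.6 and 17.1. Every endoderm value was above every hESC value, although only the G1 libraries differed beyond counting error. The endoderm to hESC ratio was 7.48 for G1 (95% counting interval 2.96 to 24.3), 1.60 for G1/S (0.597 to 4.28) and 1.81 for S phase (0.735 to 4.24). The log2 difference was 1.35 ± 0.60 (SE; 95% interval -0.06 to 2.75; limma adjusted p = 0.160), and without both G1/S libraries it was 1.70 (adjusted p = 0.219). The plot of ratios sets the 3 phases side by side for each gene.

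**Figure D2:**
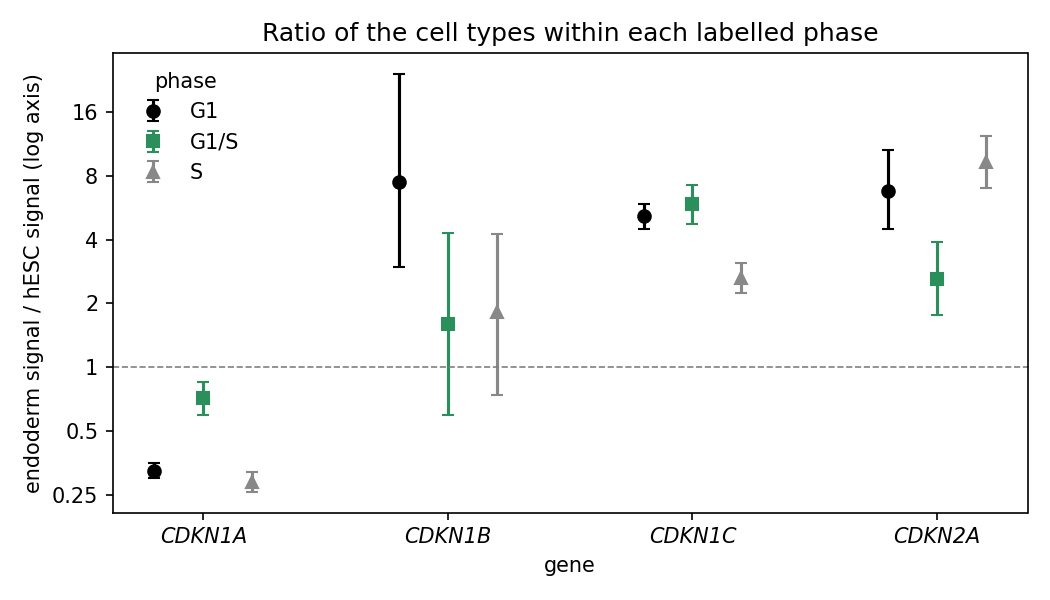
Ratio of endoderm to hESC signal (log axis) for each inhibitor in G1 (black circles), G1/S (green squares) and S (grey triangles). Each point compares 2 libraries and each bar is its exact 95% counting interval; CDKN1A lies below 1 and CDKN1C and CDKN2A above 1 in every phase, and the bars of CDKN1B in G1/S and S cross 1.

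The comparisons of G1/S and S with G1 ask which inhibitors change as cells enter replication. No region passed over both cell types (0% of regions for G1/S against G1 and 0% for S against G1), so none of the 4 inhibitors did. Unadjusted p was under 0.05 in 2002 and 497 regions with limma, edgeR called 0 and 0, and DESeq2 called 65 and 1. CDKN1A had the largest difference at G1/S, -1.38 ± 0.38 on the log2 scale (SE; limma adjusted p = 0.362), and 9.47% of regions were lower. CDKN2A had the largest in S, at 1.19 ± 0.51 (SE; limma adjusted p = 0.982), and 5.80% of regions were higher. CDKN1C stood at -0.55 and -0.41 in these comparisons and CDKN1B at 0.26 and 0.22.

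Within a cell type each phase is 1 library, so the following are values with counting intervals and no test. In hESCs CDKN1A was 3.87 times lower at G1/S than in G1 (95% counting interval 3.48 to 4.32) and 5.16 times higher in S than at G1/S (4.66 to 5.73). It was the only one of the 4 at least 2-fold lower at G1/S on the log2(value + 1) scale, as were 18.1% of regions. In endoderm its G1/S signal was 0.568 of the G1 signal (0.480 to 0.669), and none of the 4 was at least 2-fold lower there, against 21.8% of regions. The dip at G1/S was thus present in both types, but its size is that of single libraries. The G1/S libraries and endoderm G1 also differ from the rest in GC content. After correction for GC content, added after the data were seen, the G1/S difference from G1 over both types was -1.42 for CDKN1A (from -1.38), -0.12 for CDKN1C (from -0.55), 0.82 for CDKN1B (from 0.26) and 0.82 for CDKN2A (from 0.48), and none passed. The last 500 bases of the CDKN1A transcript are 51.4% G or C, at the 64.0th percentile of the regions with a value.

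CDKN2A was highest in endoderm S, at 2.71 times the G1 level (95% counting interval 2.22 to 3.31) and 3.10 times the G1/S level (2.36 to 4.12). It was the only inhibitor at least 2-fold higher in endoderm S than in G1, as were 10.6% of regions. In hESCs it was 2.28 times higher at G1/S than in G1 (1.37 to 3.86) and 1.98 times higher in S (1.24 to 3.25). CDKN1B and CDKN2A were the 2 of 4 at least 2-fold higher at G1/S in hESCs, against 12.9% of regions, and CDKN1B alone was so in hESC S, against 15.4%. The CDKN1B intervals include no change (0.857 to 10.3 at G1/S). In endoderm CDKN1C stood at 0.726 of its G1 level at G1/S (0.650 to 0.810) and at 0.538 in S (0.474 to 0.610), whereas its hESC G1 and S values differed by less than counting error (ratio 1.05, 0.890 to 1.24). The plot of differences gives the fitted values beside those under other settings.

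**Figure D3:**
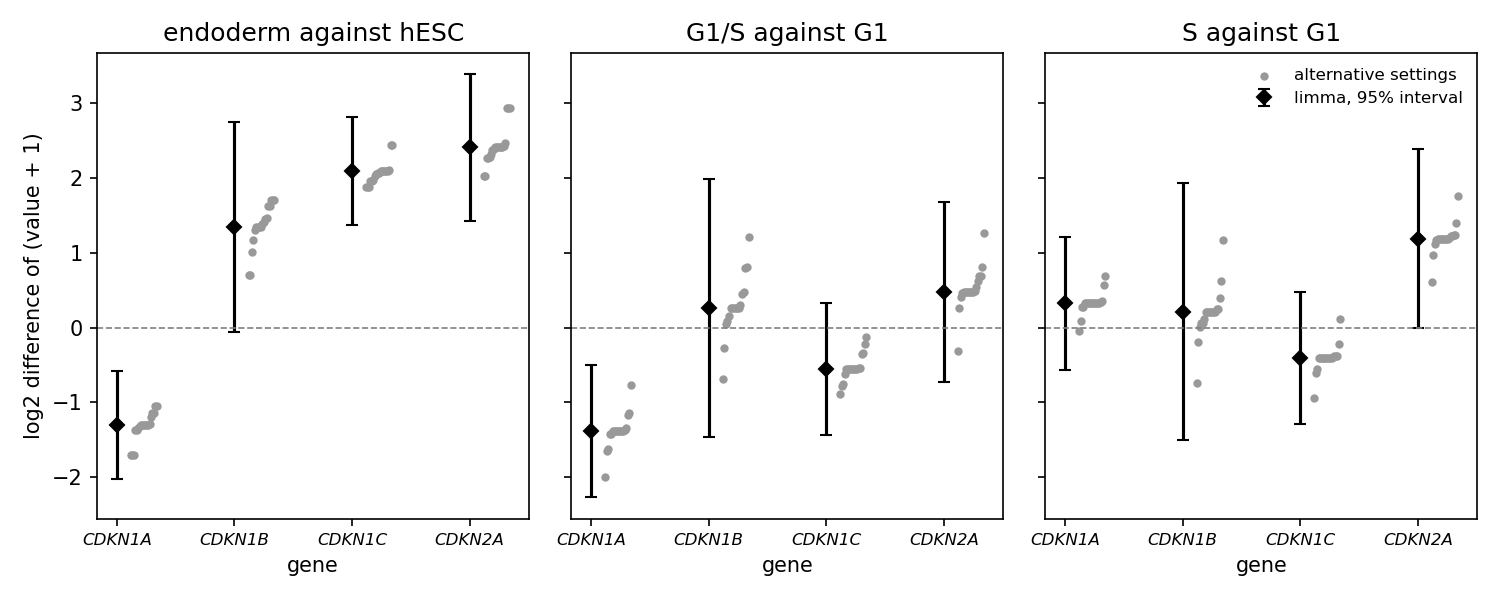
Log2 difference of (value + 1) for the 4 inhibitors in 3 comparisons. Black diamonds are limma estimates from all 6 libraries with 95% intervals, and grey points the same difference under each alternative setting; in endoderm against hESC no alternative changes a sign, while in the phase comparisons some points of CDKN1B, CDKN2A, CDKN1A and CDKN1C lie across 0.

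The lists around the inhibitors were followed in the same endoderm comparison, in which the median log2 difference of all regions was 0.02. Over all regions 415 passed without both G1/S libraries against 2125 with them, so lost calls in the lists are not particular to them. Of 9 measured cyclins and kinases none passed with limma on all libraries and regions (median 0.26), with edgeR or without both G1/S libraries. With DESeq2 2 rose, the G1 cyclin CCND2 (1.28; adjusted p = 0.0410) and CDK2 (1.29; adjusted p = 0.0387). In limma fits 2 rose without hESC G1 alone and 2 without endoderm G1 alone. CCND1 and CDK2 each passed in 2 of the 6 fits with 1 library dropped. After correction for GC content 1 of 8 rose. Of 7 measured pocket proteins and E2F factors, 2 rose and 1 fell (median 0.32), against 6.90% and 7.60% of all regions. E2F2 (1.93) and E2F3 (3.48), activators of replication genes, rose, and TFDP2 (-1.83), a partner that E2F proteins need to bind DNA, fell. Without both G1/S libraries 1 rose and 0 fell. RB1, RBL1 and RBL2, the pocket proteins that CDKs switch off, had no region. The only other INK4 inhibitor with a region, CDKN2D (p19), had, in phase order, 4.54, 17.7 and 19.5 in the hESC libraries and 29.7, 21.6 and 47.9 in the endoderm libraries. Its groups did not overlap, and the fitted change on the log2 scale was 1.33 ± 0.54 (SE; limma adjusted p = 0.129), or 1.86 without both G1/S libraries (adjusted p = 0.141). CDKN2B, CDKN2C and the antisense RNA CDKN2BAS had no region.

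**Figure D4:**
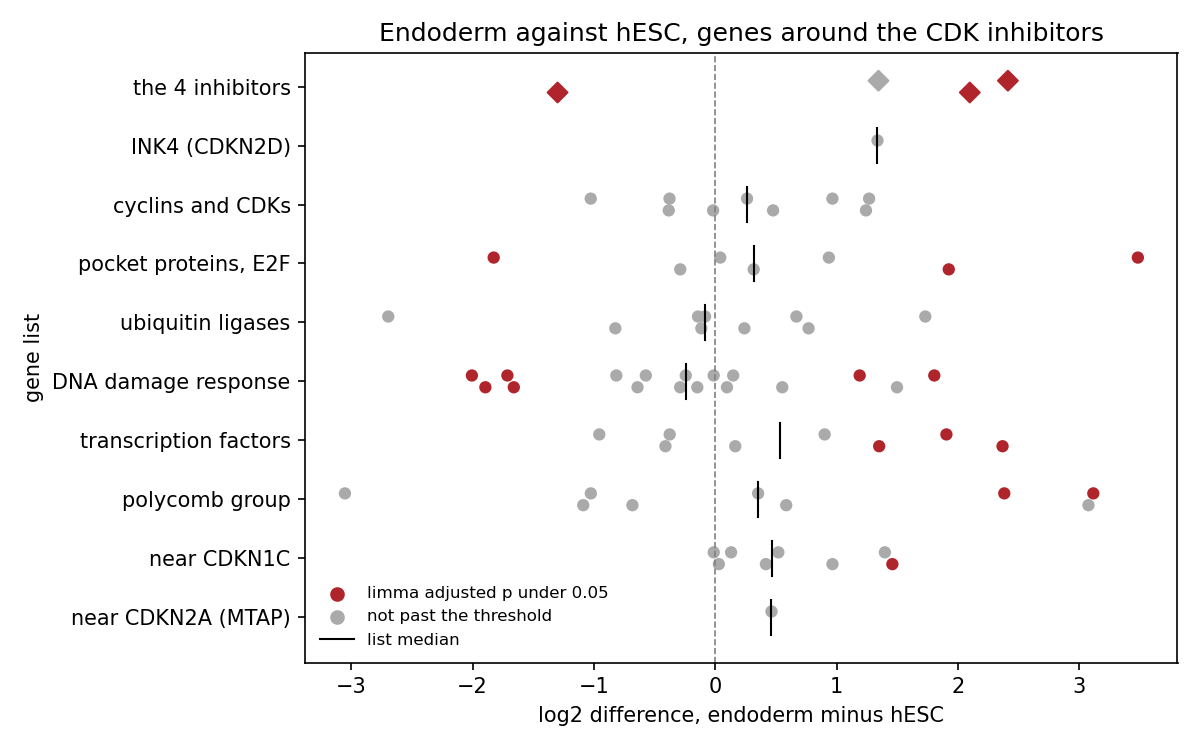
Log2 difference, endoderm minus hESC, of every measured gene in the lists around the inhibitors, 1 point per gene (diamonds for the 4 inhibitors), with the list median as a black line. Red points passed the threshold (limma adjusted p under 0.05) and grey points did not; the damage response list has 4 red points below 0 and 2 above, and the cyclin and ubiquitin ligase lists have none.

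Among 17 measured genes of a DNA damage response list, which does not hold CDKN1A itself, 4 fell and 2 rose (median -0.24). Of all regions 7.60% fell and 6.90% rose. Those that fell were DDB2 (-2.01), which recognises ultraviolet damage, FDXR (-1.90), a mitochondrial electron carrier enzyme, MDM2 (-1.71), a ubiquitin ligase of the damage response, and TP53I3 (-1.66), a quinone reductase. GADD45A (1.81), a stress protein that binds CDK1, and SESN2 (1.19), a stress-induced regulator of growth signalling, rose. In phase order, DDB2 gave 1215, 464 and 1596 for hESCs and 333, 148 and 279 for endoderm. Like CDKN1A it was lowest at G1/S in both types and highest in hESC S, but its hESC and endoderm values did not overlap. MDM2 was also lowest at G1/S in hESCs, whereas FDXR and TP53I3 were highest there. Without both G1/S libraries 1 of the 17, DDB2, fell and 0 rose. Without the intensity trend 3 fell and 1 rose.

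**Figure D5:**
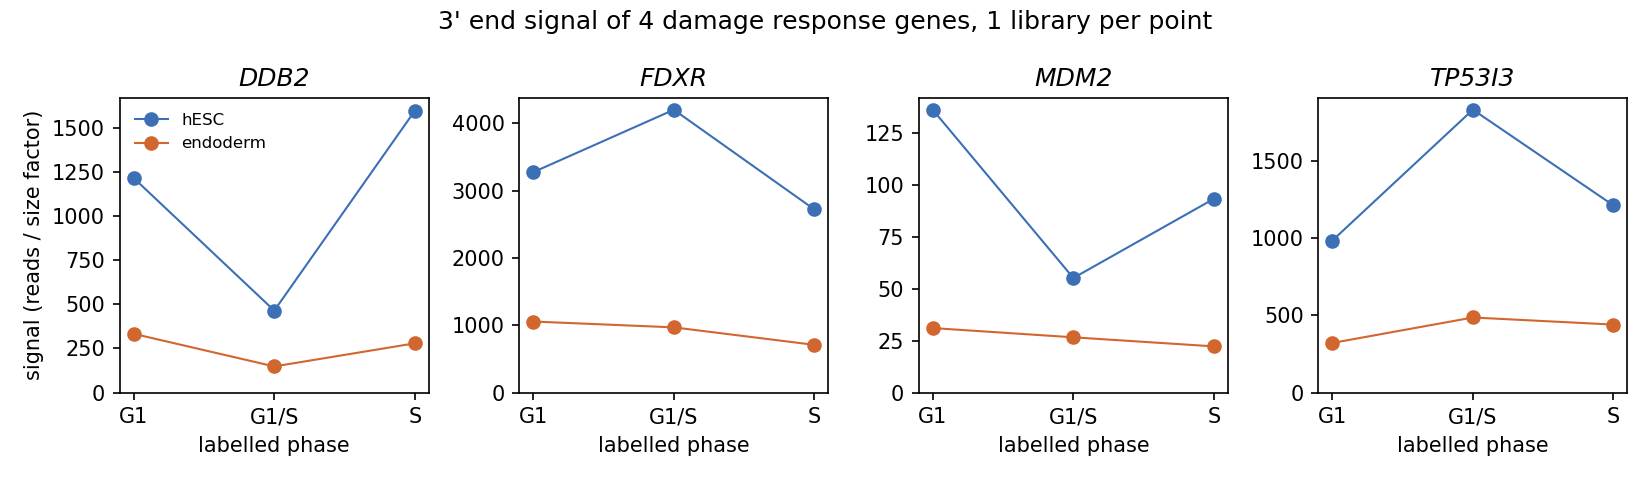
Signal (reads divided by the size factor) against labelled phase for the 4 genes of the damage response list that fell in endoderm, hESC in blue and endoderm in orange, 1 library per point. Every hESC point lies above every endoderm point, DDB2 and MDM2 are lowest at G1/S in hESCs, and FDXR and TP53I3 are highest there.

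Of 8 measured transcription factors that act on CDKN1A or CDKN1B, 3 rose and none fell with limma over all regions (median 0.53), against 6.90% and 7.60% of all regions. With DESeq2 and after correction for GC content 3 rose and 1 fell, as on the same named regions without correction. With edgeR 2 rose and 0 fell. None passed without both G1/S libraries. SMAD3 had every endoderm value below every hESC value and missed the threshold (-0.96; limma adjusted p = 0.0587). FOXO3 (1.35) activates CDKN1B, KLF6 (2.37) activates CDKN1A, and MYC (1.91) represses both. When single libraries were dropped the MYC call was kept in 0 fits of 6. Of 9 measured ligase parts and partners that remove CDKN1A or CDKN1B protein none passed (median -0.08), nor without both G1/S libraries. SKP2, which marks CDKN1B for removal, had 5.30, 6.25 and 4.73 in the hESC libraries and 29.7, 9.98 and 27.4 in the endoderm libraries (limma adjusted p = 0.0936). Its RNA was thus not lower in any endoderm library.

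Polycomb proteins are known to keep CDKN2A silent in stem cells. Of 9 measured genes in that list 2 rose and none fell with limma on all 6 libraries (median 0.35), against 6.90% and 7.60% of all regions. The counts moved with the setting: 1 also fell with a pseudocount of 5 and with median centring, and with DESeq2 3 rose and 1 fell. Of 8 with a GC value, 1 rose and 1 fell when only such named regions were fitted. After correction for GC content 1 rose and 2 fell. None passed without both G1/S libraries. JMJD3, the demethylase KDM6B that removes the polycomb mark, rose from 29.2 ± 14.4 to 261 ± 126 (SD, n = 3 phases; fitted change 3.12 ± 0.54 SE; limma adjusted p = 0.0136). The polycomb subunit CBX8 rose too (2.38), on few reads, and when single libraries were dropped its call was kept in 0 fits of 6. SUZ12 had 27.2, 15.6 and 14.8 in the hESC libraries and 0.690, 6.65 and 0 in the endoderm libraries and missed the threshold (limma adjusted p = 0.0532), where 0 reads in endoderm S allow a signal of up to 5.13. In the limma fit of all regions and libraries other subunits did not pass, such as EZH2 (3.08, limma adjusted p = 0.0756) and JARID2 (-0.68).

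In a list of imprinted and neighbouring genes of CDKN1C, 1 of 8 measured genes rose, against 6.90% of all regions. The count depended on the setting: 3 of 8 rose with DESeq2 and after correction for GC content. With the stricter filter 2 rose, as on named regions without that correction. The 1 that rose with limma over all regions was IGF2 (1.46, limma adjusted p = 0.0254), which has no region within 100 kb of CDKN1C. IGF2 did not pass without both G1/S libraries or without the intensity trend. PHLDA2, imprinted in the same direction as CDKN1C and 44375 bases away, had a log2 difference of 0.97 (limma adjusted p = 0.0637), and NAP1L4 and SLC22A18 had -0.01 and 0.03. PHLDA2 was at 377 in endoderm G1 and 1748 in endoderm S, the reverse order of CDKN1C. A region without a gene name, chr11:2861397-2861516, overlaps the CDKN1C region on the opposite strand. Its values were 0, 3.12 and 2.36 for the hESC phases and 33.8, 13.3 and 10.3 for the endoderm phases (2.89 ± 0.91 SE; limma adjusted p = 0.0728). It was highest in the library in which CDKN1C was highest, and how far reads of the 2 strands were kept apart was not tested. No other region lies within 100 kb of CDKN2A, and MTAP, further off on that arm, had 0.46 (limma adjusted p = 0.479). Near CDKN1A and CDKN1B, SFRS3 (0.35), APOLD1 (0.23) and an unnamed region (-1.18; limma adjusted p = 0.123) did not pass.

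The genes most like each inhibitor over the 6 libraries were found by Pearson's r of log2(value + 1) among 5794 or 5795 named regions with a mean signal of at least 50. They were NIP30, OSGEP and BLVRA for CDKN1A, MAP3K12 and DNAL4 for CDKN1B, BSPRY, S100A14 and MARCKSL1 for CDKN1C, and MARCH4, HNRNPUL1 and HNRNPAB for CDKN2A, each with r between 0.987 and 0.997. These are 6 points that share libraries, and at a looser cut between 147 and 212 regions had r over 0.9 with each inhibitor. An r over 0.9 is thus not particular to the genes named. OSGEP shows the CDKN1A pattern in an extreme form, with 113, 9.37 and 260.5 for the hESC phases and 9.67, 4.99 and 17.1 for the endoderm phases.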

How the data were processed

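The deposited table gives 14686 regions of 3′ read ends, each with its position, a gene name or number, and the signal in every library. Per the submitters' processing notes, CASAVA 1.5, Bowtie 0.12.7, DESeq 1.5.24 and the builds hg18 and NCBI36 were used, with no role stated for any of them. The deposited signal is linear, although the table is named for a variance-stabilising transformation: 100% of values are whole reads (tolerance 1e-05) divided by 1 constant per library, which equals the recomputed median-of-ratios size factor. So log2(value + 1) was analysed, and it understates the change of weak genes. A filter (at least 1 on that scale in at least 3 libraries) kept 14657 regions, the 4 inhibitors included. Cell type and phase were fitted with limma 3.58.1 (intensity trend, 2 residual degrees of freedom) in R 4.3.3, adjusted by Benjamini-Hochberg over all regions at 0.05, two-sided. The fit draws the spread of each region towards that of regions of like signal (prior degrees of freedom 5.46). Each SE and p-value thus rests largely on other regions. Same-numbered libraries share a labelled phase, so the phase term pairs them. With 1 library dropped, its partner no longer bears on the cell type difference, so single-library fits give only 1 distinct difference per phase. Alternatives used edgeR 4.0.16 (quasi-likelihood) and DESeq2 1.42.0 (no independent filtering or outlier cutoff) on the recovered reads, other scalings, pseudocounts and filters, and libraries left out. GC content of the last 500 bases of the longest GENCODE transcript was found for 85.2% of named regions. Fits corrected for GC content were adjusted over the 8825 such regions past the filter. Intervals for 1 library or 2 are exact 95% intervals and, like the limit of 3 reads for a count of 0, cover counting error only, because reads copied in amplification are not separate molecules. A gene with several regions is represented by the one with the highest mean. All regions of the 4 inhibitors are named, list members if past the threshold, other INK4 genes and regions within 100 kb whatever their value, and the 3 regions most alike by r; some items that this rule or the lists give are not reported here. Further list genes given with values were chosen after their values were seen. The inhibitors and the lists were chosen with earlier results of these data known.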

Additional observations from a re-analysis of the deposited data

Results flagged for a closer look

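For 3 inhibitors the change from G1 had opposite signs in the 2 cell types, with 1 library on each side, so the difference was not tested. In none of these items did the changes in both cell types exceed counting error. On the log2(value + 1) scale CDKN1B at G1/S went by 1.25 in hESCs and -0.73 in endoderm (endoderm minus hESC -1.99), and in S by 1.13 and -0.69 (-1.82), on 5 to 41 reads per library. Each of these CDKN1B changes was less than counting error. CDKN2A at G1/S went by 1.15 in hESCs and -0.19 in endoderm (-1.34), where the endoderm libraries differed by less than counting error. CDKN1C in S went by 0.07 in hESCs and -0.89 in endoderm (-0.96), where the hESC libraries differed by less than counting error.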

How the results depend on the processing

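In endoderm against hESC the sign of all 4 inhibitors was kept under every alternative run, and CDKN2A passed and CDKN1B missed the threshold in all in which they were tested. CDKN1B is removed by the stricter filter. After correction for GC content CDKN1A (-1.20), CDKN1C (1.97) and CDKN2A (2.32) kept their calls. They kept them too on the same 8825 named regions without correction. CDKN1C lost its call at 1.88 without both G1/S libraries (leave-one-out range 1.88 to 2.45). CDKN1A lost its call at -1.30 without the intensity trend and without the phase term, and at -1.71 without both G1/S libraries (leave-one-out range -1.71 to -1.05). It also lost the call at -1.05 without hESC S alone or endoderm S alone. Leave-one-out ranges were 0.71 to 1.70 for CDKN1B and 2.03 to 2.94 for CDKN2A. Regions past the threshold numbered 415 without both G1/S libraries and 419 to 2344 with 1 library left out (419 without hESC G1/S, 571 without endoderm G1/S, 975 without hESC S and 1200 without endoderm S), against 2125 in all. Without the phase term, which removes the replicate block (pairing by phase), they numbered 1825. For G1/S against G1 the count was 65 with DESeq2 and 0 to 329 leave-one-out (329 without hESC G1, 196 without endoderm G1), and for S against G1 it was 1 with DESeq2 and 0 to 201 (201 without endoderm G1).

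Signs turned only in phase comparisons with 1 library left out. For G1/S against G1, CDKN1B ranged from -0.69 (without hESC G1) to 1.21, with -0.28 without hESC G1/S, and CDKN2A from -0.31 (without hESC G1/S) to 1.27. For S against G1, CDKN1A ranged from -0.044 (without hESC S) to 0.70, CDKN1B from -0.74 (without hESC G1) to 1.17, with -0.20 without hESC S, and CDKN1C from -0.94 to 0.12 (without endoderm S). Fewer libraries per phase are part of each of these fits, and other causes were not tested. Median centring moved the median of all regions by 0.22 for G1/S against G1, where CDKN1A was then at -1.17. The correction for GC content and the fit on named regions only were added after the data were seen. Summing the regions of a gene changed nothing, since each inhibitor has 1. CDKN1B has 92 reads in all, and the part of depth in its missed call was not tested.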
